A study of Mus musculus with 6 samples.

Results

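The genes described here are 35 regulators and effectors of the cell cycle and DNA replication, measured by bulk RNA-seq in the midface of mouse embryos at E10.5 (E, embryonic day). They were chosen by name: 3 D cyclins, 5 genes for G1 kinases and cyclin E, 2 inhibitors of cyclin-dependent kinases (CDKs), 2 E2F factors, 9 replication genes and 14 mitosis genes. Each of the 35 had 1 row among the 55401 genes of the count table, and all 35 were among the 19612 genes that passed the filter on low counts and were tested. The tissue was the frontonasal and maxillary prominences, the swellings from which the upper face forms, taken from 3 control and 3 mutant embryos. Mutants (Tfap2Δ/NCKO) were Wnt1:CRE-positive and null/flox at Tfap2a and at Tfap2b, the genes of the AP-2α and AP-2β transcription factors, which left neural crest cells without either gene and every other cell heterozygous. Controls were littermates without CRE. All embryos had a floxed allele of both genes from the dam, and a control could have either a wild-type or a null allele of each from the sire, so some controls may have been heterozygous in every cell, and the CRE transgene and the AP-2 genotype cannot be told apart. Wnt1:CRE acts in premigratory neural crest, and in mutants the cells outside that lineage in the dissected tissue, such as surface ectoderm, endothelium and blood, keep 1 allele of each gene. The protocol describes tissue from 3 control and 3 mutant littermates for these 6 libraries, so each library is taken here as 1 embryo. The p-values set the difference between genotypes against the spread between libraries of the same genotype.

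In an embryonic facial prominence, growth depends on mesenchyme that divides beneath the ectoderm. D cyclins bind the kinases Cdk4 and Cdk6 and, with cyclin E and Cdk2, phosphorylate the retinoblastoma protein, which frees E2F factors to switch on genes for DNA replication. Mcm2 to Mcm7 form the helicase that is loaded at origins, Pcna is the sliding clamp of the polymerases, and Rrm1 and Rrm2 form ribonucleotide reductase, which makes deoxynucleotides. Mitotic genes are switched on later, in G2, largely through promoters that hold an NF-Y box and a cell cycle genes homology region (CHR). The study asked which genes depend on TFAP2 in the midface. Separately, it counted dividing cells by phosphorylated histone H3 in frontonasal mesenchyme and reported fewer in mutants. That count was made at a later stage, in mutants with floxed alleles only. Its cell cycle scoring of single-cell mRNA, also at the later stage, found no noticeable difference. The mRNA values here come from an earlier stage, whole tissue and another mutant genotype, so they cannot be set directly against either.

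Promoter sequence was read from RefSeq windows (build GRCm38.p6) that run from 250 bases before to 50 after a gene's start. Of the 35 genes, 29 had at least 1 window; Ccnd1, Ccnd2, Ccne2, Ccna2, Mcm4 and Aurkb had none. Windows were searched on both strands for 4 E2F words (TTTGGCGC, TTTCCCGC, TTTCGCGC and TTTGCCGC), the CHR (TTTGAA), the NF-Y box (CCAAT) and the AP-2 palindrome (GCCNNNGGC). The following stretches, 100 bases before the start and 30 from it, were picked because they hold these motifs, to show how the matches lie in replication and in mitosis genes. They are printed 5′ to 3′ with matches of the E2F words and the NF-Y box in capitals for 3 replication genes, with the upstream window shown for Mcm7, which has 2.
Mcm3, chr1:20820283-20820412, minus strand: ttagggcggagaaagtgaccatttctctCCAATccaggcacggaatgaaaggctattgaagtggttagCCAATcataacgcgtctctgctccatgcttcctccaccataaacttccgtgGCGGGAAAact
Mcm6, chr1:128359676-128359805, minus strand: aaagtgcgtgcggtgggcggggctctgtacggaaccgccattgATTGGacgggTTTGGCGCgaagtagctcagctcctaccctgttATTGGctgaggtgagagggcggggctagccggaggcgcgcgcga
Mcm7, chr5:138171854-138171983, minus strand: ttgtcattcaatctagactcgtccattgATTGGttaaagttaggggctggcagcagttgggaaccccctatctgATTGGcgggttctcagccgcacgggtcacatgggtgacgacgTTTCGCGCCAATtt

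The next stretches are the mitosis counterpart, with matches of the CHR and the NF-Y box in capitals.
Ccnb2, chr9:70421525-70421654, minus strand: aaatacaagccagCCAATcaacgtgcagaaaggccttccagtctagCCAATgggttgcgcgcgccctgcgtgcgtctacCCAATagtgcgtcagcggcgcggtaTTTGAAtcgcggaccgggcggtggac
Cdk1, chr10:69352883-69353012, minus strand: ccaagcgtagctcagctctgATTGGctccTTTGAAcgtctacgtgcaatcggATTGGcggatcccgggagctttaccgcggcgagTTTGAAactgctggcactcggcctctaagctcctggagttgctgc
Top2a, chr11:99024160-99024289, minus strand: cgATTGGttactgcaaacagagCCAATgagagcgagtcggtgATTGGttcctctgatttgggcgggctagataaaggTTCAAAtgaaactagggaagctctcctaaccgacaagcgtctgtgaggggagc
Cenpf, chr1:189688057-189688186, minus strand: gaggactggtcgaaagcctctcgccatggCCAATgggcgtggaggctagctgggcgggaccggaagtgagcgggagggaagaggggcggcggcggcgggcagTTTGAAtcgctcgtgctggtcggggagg

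An E2F word was found in 4 of 8 replication genes with a window (50%: Mcm3, Mcm5, Mcm6 and Mcm7), in 1 of 12 mitosis genes (8.33%, Cdk1) and in 2.6% of all 27025 genes with a window. The CHR was found in 8 of 12 mitosis genes (66.7%), in 1 of 8 replication genes (12.5%, Mcm2) and in 20.2% of all genes. NF-Y boxes were present in 8 of 8 replication and 11 of 12 mitosis genes, against 41.1% of all genes. In Ccnb2 the 3 NF-Y boxes started 33 bases apart and the CHR lay just past the start. In Mcm7 the E2F word and an NF-Y box shared bases, the only overlap of different motifs among the 33 windows of these genes. The AP-2 palindrome was found in 10 of the 29 genes (34.5%), against 18.5% of all genes. It was in 2 of 8 replication genes (Mcm6 and Rrm2) and in 4 of 12 mitosis genes (Ccnb1, Birc5, Bub1 and Cenpf). The others were Cdk2, Ccne1, Cdkn1b and E2f1. All of these motif hits are matches of letters only, and binding of a factor was not measured here. The study mapped TFAP2 binding across the genome in whole facial prominences at a later stage, and its binding sites were not used here.

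**Figure D1:**
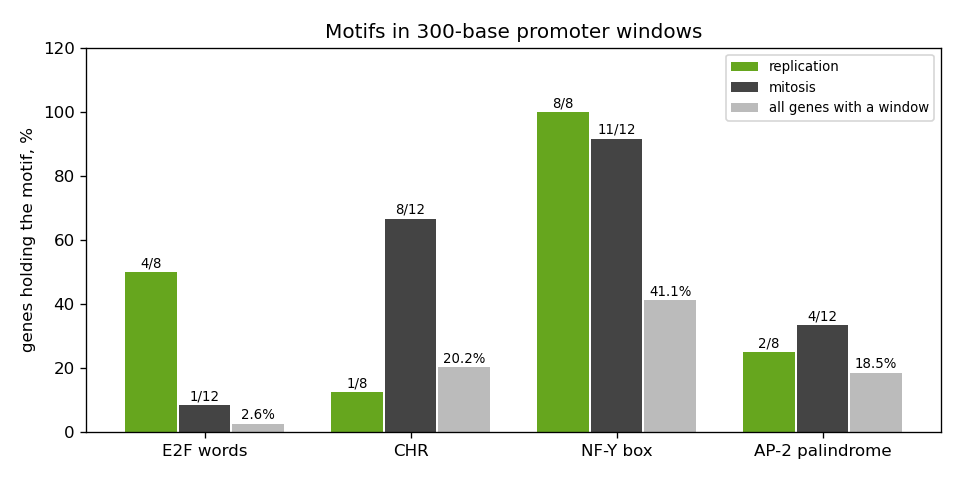
Bars give the percent of genes whose 300-base promoter window holds each motif (y axis), for replication genes, mitosis genes and all 27025 genes with a window. E2F words were found in 4 of 8 replication genes and the CHR in 8 of 12 mitosis genes.

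None of the 35 genes passed the threshold between mutants and controls (adjusted p below 0.05 over all genes tested by edgeR's quasi-likelihood test, and a difference above 0.32 in either direction on the log2 scale). Over all 19612 genes, 64 passed it (0.326%), 43 lower and 21 higher in mutants. At an unadjusted p below 0.05 the count was again 0 of 35, against 1560 of all genes (7.95%), and DESeq2 also called 0. The smallest unadjusted p was 0.0825, for Cdk6. Values were higher in mutants for 17 genes and lower for 18, with a median log2 fold difference of -0.01 (mutant over control), against 0.00 over all genes tested. For 24 of the 35 the difference was under 0.05 on the log2 scale, and for 28 it was smaller than the standard deviation (SD) between libraries of a genotype. Together the 35 genes took 9960 to 10078 CPM (counts scaled to library size) in controls and 9818 to 10188 CPM in mutants.

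The precision of the fit can be read from the 95% interval of each difference. This interval lay within 0.32 of 0 on the log2 scale, the same fold as the threshold, for 34 of the 35 genes, against 47% of all genes tested, which include many of low count. Mean counts of the 35 ran from 263.5 (Cdkn2c) to 84450 (Cdk4), and their median SD within a genotype was 0.07 on the log2 scale, against 0.13 over all genes. The exception was Cdkn2c, the least abundant of them. Bulk tissue cannot tell a change in the number of dividing cells from a change in mRNA per cell.

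**Figure D2:**
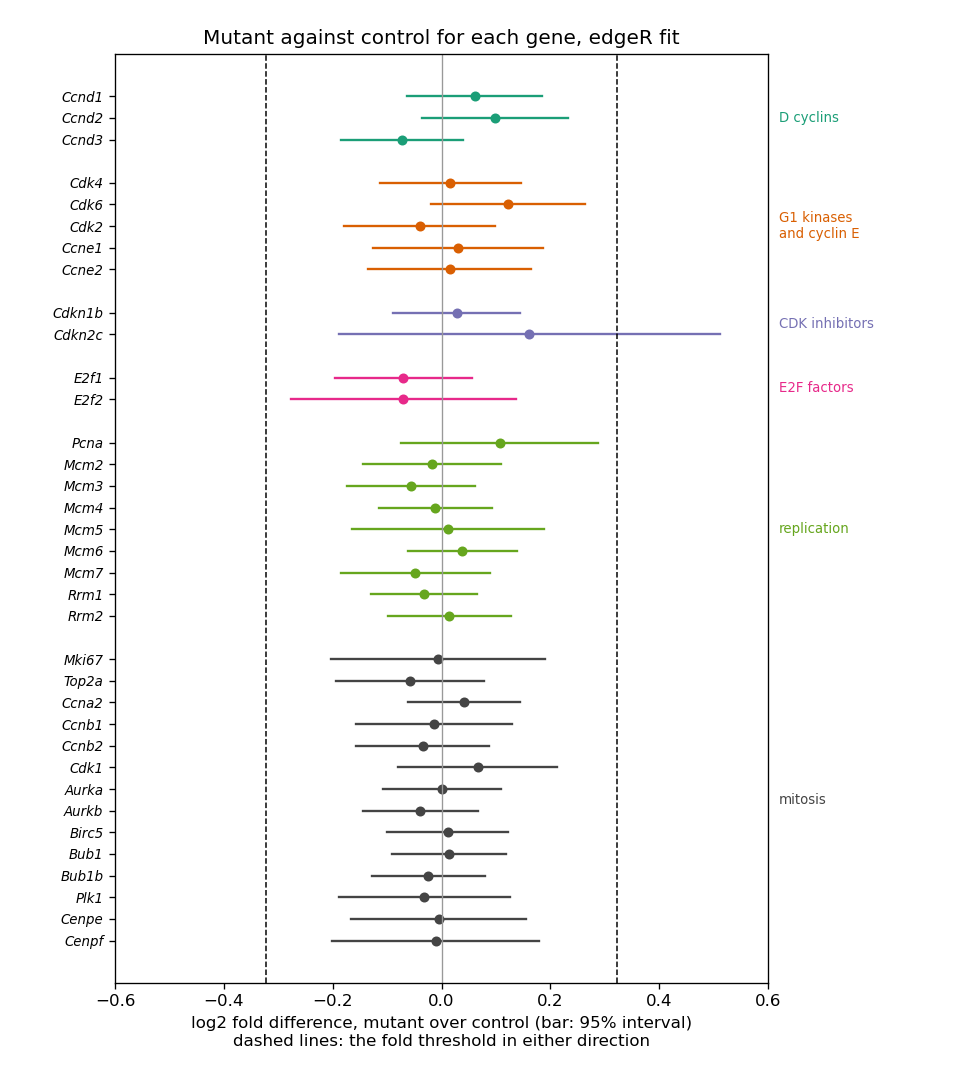
Each point is the log2 fold difference of a gene, mutant over control, from the edgeR fit of 3 against 3 libraries, and the bar is its 95% interval. Every bar crosses 0, and all but that of Cdkn2c stay inside the dashed lines, which mark the fold threshold (0.32 on the log2 scale).

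Among the D cyclins, which start the passage through G1, Ccnd1 (chr7:144929931-144939925) had control values of 432, 479 and 441 CPM (libraries 1 to 3) and mutant values of 481, 477 and 453 CPM. Its ranges overlapped, with control 2 among the mutants, and the log2 fold difference was 0.06 (SE 0.05, 95% interval -0.06 to 0.19, adjusted p = 0.905 by edgeR). Ccnd2 (chr6:127125162-127152193), the D cyclin with the most counts, ranged over 581, 670.0 and 631 CPM in controls and 656, 683 and 675 CPM in mutants. Control 2 again fell inside the mutant range and control 1 was the lowest of the 6, for a difference of 0.10 (SE 0.06, interval -0.04 to 0.23, adjusted p = 0.823). Ccnd3 (chr17:47505051-47599691) had the opposite sign, with 184, 185 and 194 CPM in controls and 173, 186 and 176 CPM in mutants. The difference was -0.07 (SE 0.05, interval -0.18 to 0.04, adjusted p = 0.850), and mutant 2 lay above controls 1 and 2.

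Another feature of the libraries cut across the genotypes. Control 2 and all 3 mutants expressed the Y-linked gene Ddx3y (40.5 to 45.8 CPM), while controls 1 and 3 had it at most at 0.0534 CPM and expressed Xist, the RNA of X inactivation (667 and 699.8 CPM). Control 2 was the highest control for both Ccnd1 and Ccnd2. With a covariate for Y-linked expression, the Ccnd1 difference was -0.03, and between control 2 and the mutants alone Ccnd1 and Ccnd2 differed by -0.04 and -0.01. With 1 control expressing Y-linked genes, sex and genotype can only be separated through that library.

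**Figure D3:**
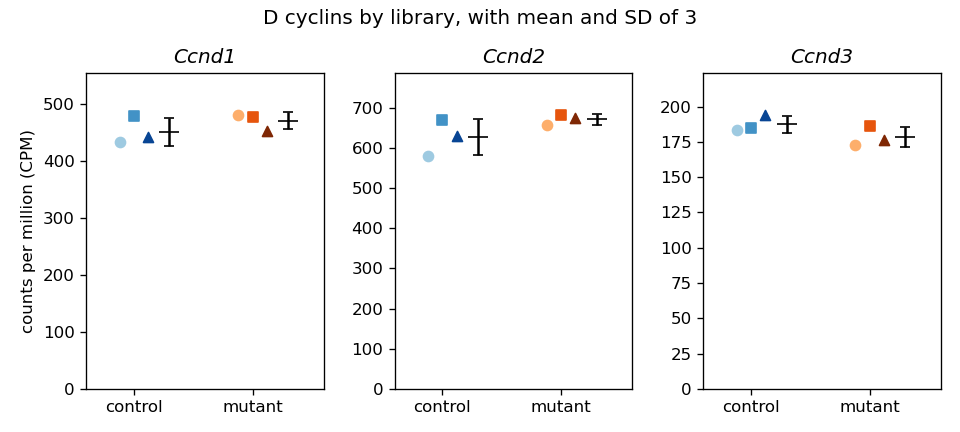
CPM of Ccnd1, Ccnd2 and Ccnd3 (y axes from 0) in controls and mutants 1 to 3, plotted left to right within each group, with the mean and SD of 3 libraries in black. Control 2 lies within the mutant range for Ccnd1 and Ccnd2, and mutant 2 lies within the control range for Ccnd3.

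Per kilobase of exon (GENCODE M21), the order of the D cyclins was the same in both genotypes. Ccnd1 had 95.8 ± 5.29 CPM per kb in controls and 99.9 ± 3.20 in mutants (SD, n = 3). Ccnd2 followed with 66.7 ± 4.75 and 71.4 ± 1.47, and Ccnd3 was lowest with 21.4 ± 0.674 and 20.3 ± 0.774. These gaps between genes were larger than the spread between libraries.

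Cdk4, the partner kinase of the D cyclins, was the most abundant of the 35 per kilobase, at 354 ± 11.1 CPM per kb in controls and 358 ± 20.7 in mutants. Its library values were 1175, 1169 and 1109.6 CPM in controls and 1183, 1220.4 and 1089.6 CPM in mutants, so the mutants bracketed the controls. Cdk6, the other partner, was far less abundant per kilobase, at 2.34 ± 0.0695 and 2.55 ± 0.142. Chosen after its values were seen, because its p was the smallest, Cdk6 had 33.9, 32.4 and 32.1 CPM in controls and 37.2, 33.4 and 36.4 CPM in mutants. Mutants 1 and 3 lay above every control and mutant 2 did not, for a difference of 0.12 (SE 0.06, interval -0.02 to 0.26, adjusted p = 0.737 by edgeR). Cdk2, the kinase of cyclin E, had 108, 104 and 118 CPM in controls and 101, 109 and 111 CPM in mutants, all within the control range but for mutant 1. The cyclin E genes Ccne1 and Ccne2 differed by 0.03 and 0.02.

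The values of both CDK inhibitors were slightly higher in mutants. Cdkn1b (p27), which restrains cyclin E with Cdk2, measured 45.1, 46.7 and 45.6 CPM in controls and 44.8, 47.8 and 47.5 CPM in mutants, a difference of 0.03 (interval -0.09 to 0.14) that took the other sign with the Y-linked covariate (-0.000618). Cdkn2c (p18), an inhibitor of Cdk4 and Cdk6, measured 3.67, 3.76 and 2.79 CPM in controls and 3.39, 4.01 and 4.03 CPM in mutants. Its difference of 0.16 was the largest of the 35 but also the least precise (SE 0.15, interval -0.19 to 0.51), and control 3 alone held the control mean down. The activating E2F genes had lower values in mutants. E2f1 had 47.2, 44.9 and 47.8 CPM in controls and 45.4, 45.6 and 42.3 CPM in mutants. E2f2 had 29.7, 24.6 and 31.1 CPM in controls and 26.2, 26.6 and 28.5 CPM in mutants. Both differences were -0.07, control 2 was the lowest control of both genes, and for E2f2, where it was the lowest of the 6 libraries, the sign turned with the Y-linked covariate (0.14).

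The 9 replication genes stayed close to 0, 5 with lower and 4 with higher values in mutants (median -0.01). Rrm2, the regulatory subunit of ribonucleotide reductase, reached 450.1, 421 and 452 CPM in controls and 454, 451 and 431 CPM in mutants (difference 0.01). Its catalytic partner Rrm1 (chr7:102441695-102469771) was the only one of the 35 genes whose groups did not overlap. Controls stood at 576, 558.1 and 567 CPM and mutants at 557.9, 551 and 554 CPM, so that control 2 and mutant 1 were nearly level. The difference was -0.03 (SE 0.04, interval -0.13 to 0.07, adjusted p = 0.941). Groups without overlap were found in 13.4% of all genes tested, and in 6.24% with mutants lower, so 1 of 35 was not above the background. The Rrm1 promoter stretch, shown because of this gene's values, held NF-Y boxes (capitals) and no E2F word.
Rrm1, chr7:102441595-102441724, plus strand: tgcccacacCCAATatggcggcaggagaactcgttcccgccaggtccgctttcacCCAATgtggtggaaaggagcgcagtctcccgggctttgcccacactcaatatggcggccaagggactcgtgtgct

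Pcna had the largest difference among the replication genes (0.11, interval -0.07 to 0.29), with mutants 1 and 2 at 397 and 413 CPM, above the control range of 337 to 365 CPM, and mutant 3 at 333 CPM, below them. The helicase genes ran from -0.06 (Mcm3) to 0.04 (Mcm6), with Mcm2 at -0.02, Mcm4 at -0.01, Mcm5 at 0.01 and Mcm7 at -0.05. The genes with an E2F word in their window lay on both sides of 0. Over the 9 genes, the 95% intervals reached from -12.02% to 22.1% relative to controls.

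In the mitosis group, 9 genes had lower values in mutants and 5 had higher ones (median -0.01). Top2a, the topoisomerase that untangles replicated chromosomes, gave 735, 733 and 788 CPM in controls and 732, 672 and 762 CPM in mutants. Its difference was -0.06 (SE 0.06, interval -0.19 to 0.08, adjusted p = 0.917), and mutant 2 was the lowest of the 6 libraries. Mki67, the gene of the proliferation marker Ki-67, gave 591, 519.9 and 578 CPM in controls and 581, 489.9 and 610.4 CPM in mutants. Mutant 3 was above every control and mutant 2 below every control, and the difference was -0.01 (SE 0.09, interval -0.20 to 0.19). The mitotic kinase gene Cdk1 had the highest value of the group (0.07), followed by its S-phase and mitotic cyclin Ccna2 (0.04). Its cyclin B partners Ccnb1 and Ccnb2 were at -0.01 and -0.03, the kinases Aurka, Aurkb and Plk1 at 0.00, -0.04 and -0.03, and Birc5 (survivin), which works with Aurkb, at 0.01. The spindle checkpoint kinases Bub1 and Bub1b were at 0.01 and -0.02, and the kinetochore motor Cenpe and the kinetochore protein Cenpf both at -0.01. Intervals over the 14 genes reached from -13.2% to 15.9% relative to controls.

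Side by side, the medians of the D cyclins, replication and mitosis groups were 0.06, -0.01 and -0.01. The summed D cyclin signal was 1197, 1334 and 1267 CPM in controls and 1311, 1346 and 1304 CPM in mutants, with control 1 the lowest library and control 2 inside the mutant range. Replication genes summed to 3519 to 3632 CPM in controls and 3384 to 3699.9 CPM in mutants, and the mutants spanned more than the whole control range. Mitosis genes summed to 3554 to 3727 CPM in controls and 3509 to 3707 CPM in mutants. None of the 3 groups separated the genotypes. With the Y-linked covariate the D cyclin and mitosis medians took the other sign (-0.03 and 0.0314).

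The spread within a genotype had a structure of its own. Mutant 3 was the lowest mutant for 8 of 9 replication genes and 9 of 14 mitosis genes, and mutant 2 was the highest mutant for 6 of 9 replication genes. The 4 mitosis genes with at least 5000 bases of exon (Mki67, Top2a, Cenpe and Cenpf) went the other way. Their mean deviation from the mutant mean was -0.15 in mutant 2 and 0.10 in mutant 3 on the log2 scale, against 0.04 and -0.06 for the other 10 mitosis genes. Across the 35 genes, Pearson's r between log2 exon length and the deviation was -0.641 in mutant 2 and 0.605 in mutant 3. In the other 4 libraries it lay between -0.177 and 0.178. The relation did not hold in every group. Among genes of other groups with at least 5000 bases of exon, Cdk6 had -0.09 in mutant 2 and 0.03 in mutant 3. Rrm1 stood at -0.0083 and -0.00041, Ccnd2 at 0.025 and 0.0079, and Cdk2 at 0.027 and 0.0495. Ccnd3 (0.061 and -0.018) and Mcm2 (0.079 and -0.076) went the opposite way from the long mitosis genes. Over the 14 mitosis genes alone r was -0.868 in mutant 2, 0.812 in mutant 3, -0.586 in control 2, 0.506 in control 1, 0.425 in mutant 1 and 0.0888 in control 3. In control 2 the 4 long mitosis genes were also low (mean deviation -0.08). Over 91 other cell cycle genes r was -0.398 in mutant 2, 0.333 in mutant 3, -0.25 in control 2 and between 0.0101 and 0.191 in the other 3 libraries. Over 19009 of the tested genes it was -0.0313 and 0.076, close to 0. A gene's deviations sum to 0 over the 3 libraries of a genotype, so opposite signs in mutants 2 and 3 are partly built in. Genes of a library are not independent, and these values are a description of 6 libraries.

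**Figure D4:**
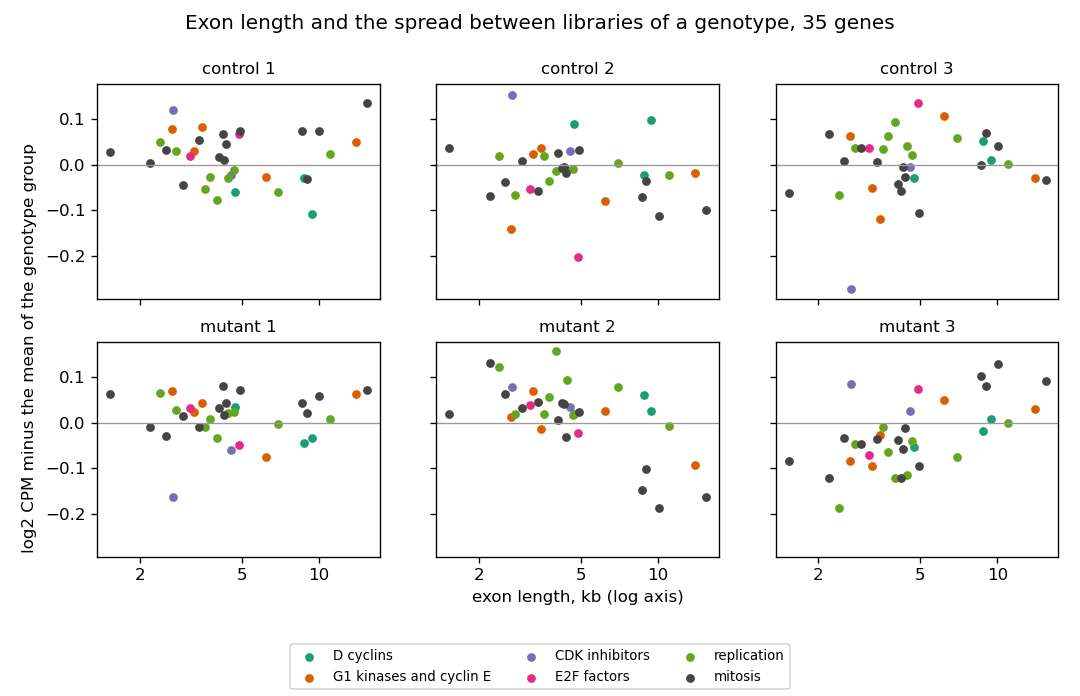
Exon length (x axis, kb, log scale) against the log2 CPM of each of the 35 genes minus its genotype mean (y axis), 1 panel per library, coloured by group. In mutant 2 the genes of over 8 kb in the mitosis group lie lowest, and in mutant 3 they are among the highest.

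The 7 lists of other cell cycle genes gave the same picture. Of 93 genes listed, 91 were tested (Cdkn2a and Cdkn2b fell under the filter), and 0 passed the threshold by edgeR or by DESeq2. At an unadjusted p below 0.05 there were 2 of 91, against 7.95% of all genes, and the median was 0.00, with 48 higher and 43 lower values. Among the other CDK inhibitors, Cdkn1c (p57), an imprinted gene that halts the cycle in G1, had 214, 264 and 234 CPM in controls and 263, 277 and 279 CPM in mutants (difference 0.20, SE 0.07, adjusted p = 0.502 by edgeR), with control 2 just above mutant 1. Among the 17 genes of origin licensing and firing, Gins2, a subunit of the active helicase, had 76.1, 71.7 and 72.6 CPM in controls and 86.0, 84.0 and 75.4 CPM in mutants (0.16, adjusted p = 0.537), with mutant 3 below control 1. The smallest p values of the remaining lists belonged to the polymerase subunit gene Pold3 (0.14, adjusted p = 0.667), the Cdk1-inhibiting kinase gene Wee1 (-0.09, 0.754), E2f3 (-0.08, 0.795), the midzone kinesin gene Kif23 (0.08, 0.844) and the thymidylate kinase gene Dtymk (0.04, 0.930). Groups did not overlap for Rbl1, E2f3 and Wee1, all lower in mutants, which is 3.3% of the 91, against 6.24% of all genes tested with mutants lower.

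Of the libraries as a whole, total counts ran from 68119668 to 77555252. Tfap2a had 30.4, 33.1 and 35.1 CPM in controls and 31.5, 28.6 and 28.6 CPM in mutants, and Tfap2b at 90.1, 88.7 and 97.3 against 84.2, 75.6 and 77.7 CPM; these counts run over the whole gene in tissue where cells outside the CRE lineage keep 1 allele, so they do not check the labels. Markers of facial mesenchyme were expressed in every library (8 genes, 1054 to 1093 CPM in controls and 847 to 877 CPM in mutants in sum). Alx1 and Alx4 among them passed the threshold, lower in mutants. Summed markers of postmitotic neurons (7 genes) stood at 421 to 610 CPM in controls and 343 to 486 CPM in mutants, and those of Schwann precursors (5 genes) at 104 to 129.8 and 73.3 to 99.7 CPM. Those of macrophages (8 genes, C1qb past the threshold) stood at 25.8 to 36.2 and 46.3 to 67.1 CPM, of endothelium (5 genes) at 209 to 219 and 229 to 248 CPM, of surface ectoderm (7 genes) at 280.1 to 297 and 299 to 356 CPM, and of neuroepithelium (7 genes) at 706 to 782 and 766 to 847 CPM. Erythroid markers (6 genes) ranged from 1591 to 3604 CPM in controls and 1934 to 2885 CPM in mutants, with control 2 the lowest, and muscle markers (6 genes) from 20.8 to 27.9 and 30.6 to 35.2 CPM. No marker was at 0 on average. The part of these shifts in cell types in the values of the 35 genes was not tested.

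Exons of 10 of the 35 genes, all 3 D cyclins among them, overlap a gene on the opposite strand in the annotation, for 1100 bases in Ccnd1 (LTO1), 740 bases in Ccnd2 and 361 bases in Ccnd3 (Bysl). The kit marked strand, but the sources do not say whether counting used it, so reads of such partners may be included. Mcm7 and Top2a overlap small RNA genes on their own strand, Mir25 and Mir93 in Mcm7. Pseudogenes named after Ccnb1, Ccnb2, Ccnd3 and Pcna are annotated, and how shared reads were split between copies is not given in the sources used here.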

How the data were processed

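RNA was kept in RNAlater, purified and made into stranded, poly(A)-selected libraries. The authors aligned reads with STAR to mm10, assembled expression against a reference annotation with StringTie, and deposited the estimated counts that prepDE derives from coverage, one table with 6 libraries. Which versions and annotation release were used, and the read length prepDE assumed, is not given in the sources used here. A further deposited table, from kallisto and sleuth, and the columns of the authors' own comparison (fold changes and p-values) were not used.

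Deposited estimated counts were rounded to whole numbers where they were not whole. Genes were filtered with filterByExpr (19612 of 55401 kept), scaled by TMM (factors 0.992 to 1.01) and tested with edgeR 4.0.16 (robust quasi-likelihood, group only, R 4.3.3) on all genes, with Benjamini-Hochberg adjustment. Calls needed an adjusted p below 0.05 and a log2 difference above 0.32 in either direction, which is the fold cutoff of the study. SE is the log2 fold change over the square root of F, and 95% intervals use the t quantile at the fit's degrees of freedom (median 8.76). CPM per library has no added count, and deviations use log2 CPM with a prior count of 2. The fit was tested on simulated data. DESeq2 1.42.0 was an alternative, with other scalings, filters, libraries left out, a Y-linked covariate and a replicate block.

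Positions and exon lengths came from GENCODE M21, where 35 of 35 gene identifiers matched, and promoters from RefSeq. Members, groups and lists were chosen with earlier results of these data known. Each of the 35 genes is named, with values per library for the D cyclins, genes without overlap and the genes of each group with the highest counts, and for each other list the gene with the smallest p. No library repeated another (chi-square per gene 17.7 to 36.5 over 15 pairs). Depth was 68119668 to 77555252 counts per library, so that 3 counts equal 0.0384 to 0.0444 CPM.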

Additional observations from a re-analysis of the deposited data

How the results depend on the processing

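None of the 35 genes and none of the 91 other cell cycle genes passed the threshold in any of 16 alternatives, and the smallest adjusted p of the 35 was 0.359. The count over all genes was 64 and moved to 261 with DESeq2, 119 with the replicate block, 38 with the Y-linked covariate, 33 in Y-expressing libraries alone, 30 without both libraries numbered 2 (added after seeing the data), and 23 (without mutant 2) to 63 (without control 2) on leaving out single libraries, with 41 without control 1, 25 without control 3 and 26 without mutant 3. Replicate numbers were not taken as pairs, since no label names a litter. Over all genes tested, deviations of same-numbered libraries correlated at 0.0319, 0.109 and 0.131, not all above 0.1. Those of different-numbered libraries ran from -0.126 to 0.00751, so over all genes each library correlated best with its own number. Over the 35 genes this did not hold for mutant 3, which correlated at 0.253 with control 1 and at 0.00473 with control 3. Libraries numbered 1 and 2 correlated there at 0.259 and 0.359. The deposited columns are also lettered with the control and the mutant of a number side by side. Whether same-numbered libraries share a litter is not stated. The replicate block left 0 of the 35 genes called.

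The D cyclin median moved to -0.03 with the Y-linked covariate and -0.04 in Y-expressing libraries alone, and the mitosis median to 0.0314 with the covariate. Of 560 recomputed log2 differences, 69 changed sign, and the largest size apart from Cdkn2c was 0.194. With the Y-linked covariate the reversed values were Ccnd1 -0.0271, Cdk4 -0.00684, Cdk2 0.0452, Ccne2 -0.0237, Cdkn1b -0.000618, E2f2 0.141, Mki67 0.107, Plk1 0.0400, Cenpe 0.0664 and Cenpf 0.0901. In Y-expressing libraries alone they were Ccnd1 -0.0424, Ccnd2 -0.0122, Cdk4 -0.0204, Cdk2 0.0265, Ccne2 -0.0346, Cdkn1b -0.0164, E2f2 0.124, Mki67 0.0928, Plk1 0.0227, Cenpe 0.0527 and Cenpf 0.0783. Without both libraries numbered 2 they were Cdk4 -0.00739, Ccne1 -0.0424, Mcm5 -0.0779, Rrm2 -0.0270, Mki67 0.0274, Aurka -0.0499, Birc5 -0.0401, Cenpe 0.0298 and Cenpf 0.0173. Aurka, near 0, was also -0.0028 with DESeq2, -0.00621 with counts divided by 2, -0.00191 with a filter of 1 CPM in 3 libraries, -0.00168 with library totals, -0.00228 with median-of-ratios factors and -0.00525 with no filter.

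On leaving out single libraries, 18 genes changed sign. Their ranges were Cdk4 -0.0182 to 0.0607, Cdk2 -0.0799 to 0.00777, Ccne1 -0.0375 to 0.0699, Ccne2 -0.0497 to 0.0481, Mcm2 -0.0572 to 0.0184, Mcm5 -0.0694 to 0.0703, Mcm7 -0.0954 to 0.00616, Rrm2 -0.0187 to 0.0362, Mki67 -0.0737 to 0.0817, Ccnb1 -0.0544 to 0.0438, Ccnb2 -0.0732 to 0.00446, Aurka -0.0310 to 0.0169, Birc5 -0.0181 to 0.0300, Bub1 -0.00927 to 0.0299, Bub1b -0.0446 to 0.00247, Plk1 -0.0991 to 0.0263, Cenpe -0.0589 to 0.0652 and Cenpf -0.0605 to 0.0667. The sign held in all 16 alternatives for 13 genes, among them Ccnd3, Cdk6, Pcna, Rrm1 and Top2a. The cause of the sign changes was not tested. Whole tissue, 3 libraries a group and the single Y-expressing control limit these values. Differences within the intervals given remain possible, and the intervals are not a limit of detection.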
